A study of Mus musculus with 6 samples.

Results

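Iron-handling genes were read in whole liver of mice lacking NEK7 in hepatocytes. They were the rows of the deposited expression table whose symbol is Hamp, Hamp2, Tfrc, Tfr2, Trf, Slc40a1, Fth1, Ftl1, Alas1 or Bmp6, that is 10 of the 17975 genes in the table, and all 10 had enough counts to be tested. Hom mice carried loxP-flanked Nek7 alleles (NEK7 fl/fl) together with Alb-Cre, a Cre recombinase driven by the albumin promoter, which is active in hepatocytes. WT mice carried either NEK7 fl/fl or Alb-Cre alone, and which of these each sequenced WT mouse carried is not given in the sources used here. All were on a C57BL/6 background and received no treatment, and the ages of the sequenced mice are not given. One liver from each of 3 WT and 3 Hom mice was sequenced. Since the RNA came from whole tissue, Cre acted in only some of the cells that contributed to it, and fewer cells of a type cannot be told apart from less RNA per cell.

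Hepcidin, encoded by Hamp, is a peptide hormone made by hepatocytes. It binds ferroportin (Slc40a1), the only known iron exporter of mammalian cells, and causes its degradation, so that hepcidin limits the release of iron into plasma. Hamp transcription is driven through BMP receptors and SMAD proteins by BMP6 and BMP2, which in liver come mainly from sinusoidal endothelial cells, and separately by IL-6 through STAT3. Transferrin (Trf) carries iron in plasma, the transferrin receptors take it up or sense it, and ferritin (Fth1 and Ftl1) stores it.

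The promoters of the mouse hepcidin genes are shown because the hepcidin readings rest on this pair of duplicated genes, whose promoter stretches are alike. The 250 bases before the transcription start were taken from RefSeq (GRCm38.p6), in which a promoter window was found for 8 of the 10 genes. Capitals mark the BMP-responsive element core GGCGCC and the STAT motif TTCNNNGAA, both searched on both strands and neither overlapping the other. Hamp lies at chr7:30944030-30944279 and Hamp2 at chr7:30924182-30924431, both on the minus strand.
Hamp: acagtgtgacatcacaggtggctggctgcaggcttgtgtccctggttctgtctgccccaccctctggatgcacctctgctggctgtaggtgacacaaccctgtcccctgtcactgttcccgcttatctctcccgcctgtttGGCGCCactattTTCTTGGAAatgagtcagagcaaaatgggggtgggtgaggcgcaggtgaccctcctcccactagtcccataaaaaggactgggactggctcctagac
Hamp2: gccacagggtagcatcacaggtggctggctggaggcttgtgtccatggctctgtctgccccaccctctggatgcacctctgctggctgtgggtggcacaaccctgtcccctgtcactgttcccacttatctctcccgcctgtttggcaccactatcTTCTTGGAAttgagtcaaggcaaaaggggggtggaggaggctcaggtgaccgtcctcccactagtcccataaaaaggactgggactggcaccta
The stretches were identical in 227 of 253 aligned columns (89.7%), with a longest identical run of 40 bases. Hamp held GGCGCC 109 bases before its start and the STAT motif 97 bases before it. Hamp2 held the STAT motif 94 bases before its start, and its letters at the place of the BMP core differed by G4A, counted from 1 at the first base of the core in Hamp. Of all 32851 promoter windows in the table, 9.59% held GGCGCC and 7.02% held TTCNNNGAA within these 250 bases. Among the 13 windows of the 8 genes, a Tfrc window also held GGCGCC (89 bases before the start). An Alas1 window also held TTCNNNGAA (171 bases before the start). TGACNNNGC, the antioxidant response element core, was searched too (10.2% of all windows) and was found in the Bmp6 window (108 bases before the start). A match of letters is a description and not a binding site. Hamp and Hamp2 transcripts also share an identical run of 62 bases, within which a read cannot be assigned to either gene, and the values of each are uncertain to that extent.

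The libraries held between 19349418 and 19730236 estimated counts each. Levels are given as CPM, the count of a gene scaled by library size and by TMM factors, which correct for library composition. These factors lay between 0.806 and 0.924 for WT and between 1.09 and 1.23 for Hom libraries, so the scaling matters here: with library size alone the all-gene median (log2, Hom over WT) moved from −0.0018 to 0.45. Nek7 was at 62.9, 69.1 and 63.6 CPM in WT livers and at 14.5, 18.1 and 16.7 CPM in Hom livers, which gave a log2 difference of −1.99 (SE 0.10, adjusted p = 0.000159). Unless another tool is named, each adjusted p comes from the quasi-likelihood test of edgeR, adjusted by the Benjamini-Hochberg method over 13805 tested genes, and log2 fold changes are Hom over WT. Hom replicate 1 stood apart in the summed level of 4 Y-linked genes, 7.13 CPM against 126.7 to 137.0 CPM in the other 5 livers, and the labels give no sex. WT replicate 1 stood apart from the other WT livers in acute phase genes, among them Saa2 at 153 CPM against 10.3 and 9.58. Hom replicate 1 stood apart from the other Hom livers in them too, with Saa2 at 1337 CPM against 102.7 and 105.8 and a summed level of 41970 CPM against 18220 and 21650. Values with and without these livers are given for some of the results that rest on them.

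Of the 10 genes, Bmp6 was higher in Hom livers, Hamp2 and Tfr2 were lower, and 7 did not pass the test. That is 1 gene higher, where 21.5% of all tested genes were higher, and 2 genes lower, where 20.1% of all tested genes were lower. Their median on the log2 scale was 0.034, against −0.0018 over all tested genes. Hom and WT values did not overlap for 4 of the 10 genes (Bmp6, Hamp2, Tfr2 and Trf), against 55.7% of all tested genes. With library size alone the split was 4 higher (Bmp6, Trf, Tfrc and Fth1) and 1 lower (Hamp2), among 6574 higher and 642 lower genes in all. Upper-quartile scaling gave 3477 higher and 2060 lower genes in all. Without Hom replicate 1, 1 gene was higher (Bmp6) and 1 lower (Tfr2). For each of the 4 genes without overlap the exact two-sided permutation test over livers gave p = 0.1, the smallest that 3 mice against 3 allow.

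**Figure D1:**
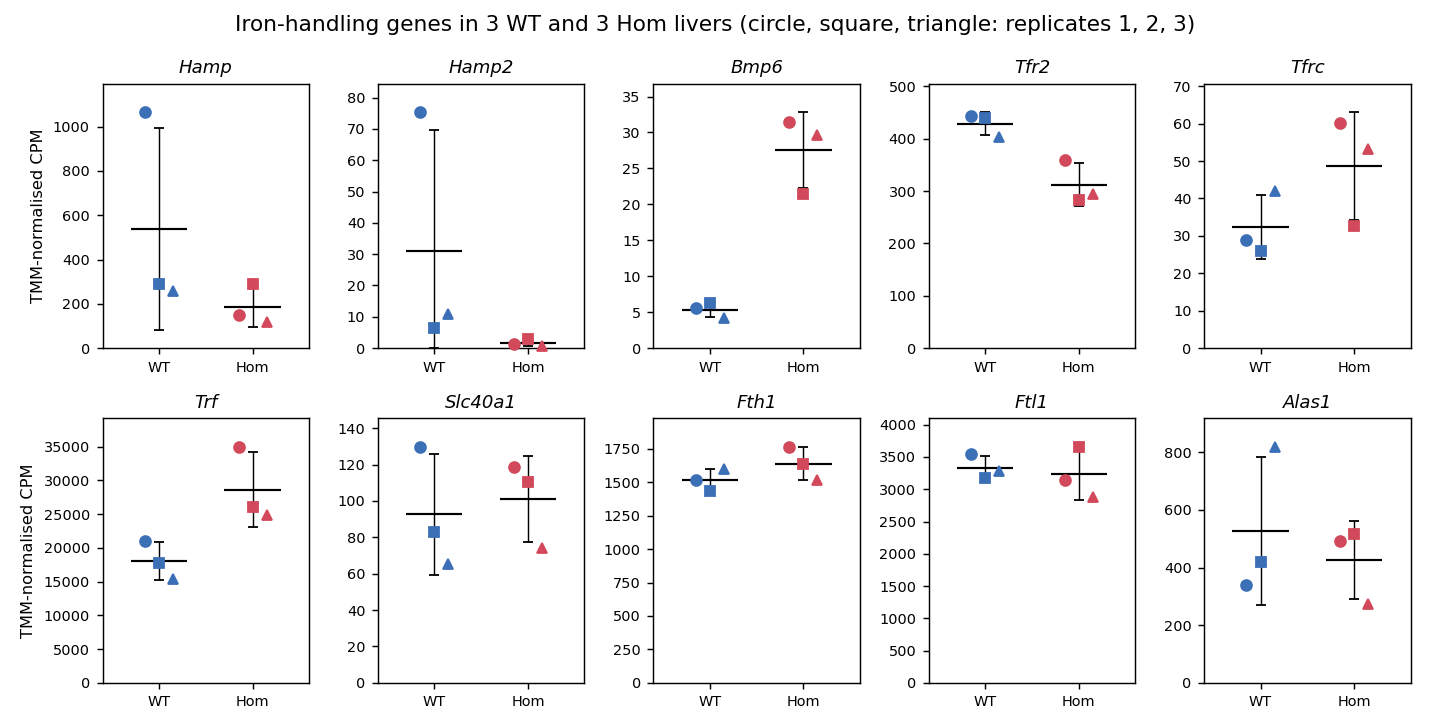
TMM-normalised CPM of the 10 genes in each liver, one panel per gene with its own axis from 0. Blue points are WT livers and red points Hom livers (circle, square and triangle are replicates 1, 2 and 3), the horizontal bar is the group mean and the whisker 1 SD, drawn no lower than 0. Bmp6, Hamp2, Tfr2 and Trf show no overlap, and a single WT liver at 1066 CPM sets the WT spread of Hamp.

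The hepcidin genes were lower on average in Hom livers, but their WT values were widely spread. Hamp (NCBI Gene 84506) was at 1066, 290.6 and 256.1 CPM in WT replicates 1, 2 and 3. In Hom replicates 1, 2 and 3 it was at 150.6, 291.6 and 117.9 CPM. Hom replicate 2 lay level with the second WT liver, so the groups overlapped. The means were 537.5 ± 457.8 CPM in WT and 186.7 ± 92.3 CPM in Hom livers (SD, n = 3 each). The log2 fold change was −1.53 (SE 0.62, 95% interval −2.98 to −0.067, adjusted p = 0.0861), short of the threshold of 0.05. Without WT replicate 1 it was −0.55 (adjusted p = 0.274), and over every library left out in turn it ran from −2.00 to −0.55.

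Hamp2, the neighbouring duplicate of Hamp in the mouse (NCBI Gene 66438), fell. It was at 75.4, 6.54 and 10.99 CPM in WT livers. In Hom livers it was at 1.26, 2.76 and 0.775 CPM, from 27, 67 and 18 counts. The highest Hom liver was below the lowest WT liver, and the Hom mean was 5.16% of the WT mean. The log2 fold change was −4.27 (SE 1.06, adjusted p = 0.0178). Without WT replicate 1, the liver in which Hamp was also highest, it was −2.45 (adjusted p = 0.0141). The call was lost without Hom replicate 1 (adjusted p = 0.0539) and without Hom replicate 3 (adjusted p = 0.0675), and with the length correction and replicate block together (−3.33, adjusted p = 0.0509).

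Hamp2 also gave a smaller share of the joint hepcidin counts in each Hom liver than in any WT liver. The share was 6.61%, 2.21% and 4.12% in WT livers and 0.829%, 0.933% and 0.650% in Hom livers. With the counts of both genes summed, which does not depend on how shared reads were divided, the log2 fold change was −1.59 (adjusted p = 0.0808). WT replicate 1 also had higher levels of the Kupffer cell marker Clec4f (125 CPM, against 58.2 and 49.1) and of Lcn2 (192 CPM, against 11.7 and 5.22). The part of these in its hepcidin level was not tested.

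Bmp6, which encodes the bone morphogenetic protein that signals iron load to hepatocytes, had the largest log2 fold change upward among the 10 genes. Bmp6 (NCBI Gene 12161) was at 5.58, 6.22 and 4.24 CPM in WT livers, from 100, 97 and 69 counts. In Hom livers it was at 31.5, 21.5 and 29.6 CPM. The lowest Hom liver was above the highest WT liver. The Hom mean was 5.15 times the WT mean, with a log2 fold change of 2.36 (SE 0.20, 95% interval 1.89 to 2.84, adjusted p = 0.000494). It passed the threshold in each of 14 alternative settings, with log2 fold changes of 2.22 to 2.81.

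Bmp2, the other endothelial BMP ligand of hepcidin control, fell. It was at 23.6, 20.0 and 15.7 CPM in WT livers and at 5.97, 5.23 and 6.25 CPM in Hom livers, without overlap. Its log2 fold change was −1.76 (SE 0.17, adjusted p = 0.000744), and it too passed in each of the 14 settings. By TPM, which corrects for transcript length, Bmp2 was above Bmp6 in each WT liver (6.04 to 10.96 against 1.95 to 3.09 TPM), and Bmp6 was above Bmp2 in each Hom liver (17.1 to 22.8 against 3.47 to 4.02 TPM). Of 14 sinusoidal endothelial markers, among which Bmp2 was counted, 9 were lower by edgeR (64.3%, against 20.1% of all tested genes). By edgeR 0 were higher, as at an unadjusted p under 0.05 and by DESeq2. With library size alone 5 were lower and 2 higher (642 and 6574 among all tested genes). The summed level of the 14 markers was 369.4 to 500.5 CPM in WT livers and 275.4 to 282.3 CPM in Hom livers. Clec4g, one of them, was at 57.8, 50.01 and 36.2 CPM in WT and 9.47, 10.9 and 12.4 CPM in Hom livers, while Pecam1 did not pass (log2 fold change 0.08, adjusted p = 0.586). The part of these cells in the Bmp6 and Bmp2 readings was not tested.

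Of a list of 29 genes of hepcidin control, 26 were tested: 6 were higher (23.1%, against 21.5% of all tested genes), 5 were lower (19.2%, against 20.1%) and the median log2 fold change was −0.11. These shares were close to those of all genes. Erfe and Il6, which encode the erythroid hepcidin suppressor erythroferrone and the inflammatory inducer IL-6, and Nog had too few counts to be tested. With library size alone the list had 14 higher and 2 lower, where 6574 of all 13805 tested genes were higher and 642 lower. Without Hom replicate 1 the list had 4 and 4. Bmp2 and Eng of this list were also endothelial markers, and Socs3 was also counted as an acute phase gene.

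The receptor complex was read gene by gene. The BMP type I receptors Bmpr1a and Acvr1 rose, with log2 fold changes of 0.43 (SE 0.069, adjusted p = 0.00377) and 0.52 (SE 0.090, adjusted p = 0.0048). Tmprss6, the hepatocyte protease that cleaves the co-receptor hemojuvelin and so restrains hepcidin, was at 467.1, 502.5 and 478.9 CPM in WT and at 331.2, 301.6 and 296.9 CPM in Hom livers. It fell, with a log2 fold change of −0.64 (SE 0.10, adjusted p = 0.0035), and only with library size alone did the call end (−0.19, adjusted p = 0.167). Hjv, hemojuvelin itself, was at 54.3, 82.5 and 86.7 CPM in WT and 105.9, 101.3 and 97.9 CPM in Hom livers, without overlap but short of the threshold (adjusted p = 0.0728). It passed with DESeq2 (adjusted p = 0.0442), library size alone (0.00236), upper-quartile factors (0.0408) and without WT replicate 1 (0.0472). Hfe, the haemochromatosis protein that acts with TFR2, did not pass (log2 fold change −0.18, adjusted p = 0.186), and its direction turned with library size alone (0.28, adjusted p = 0.0304).

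Of 4 genes that BMP signalling switches on in hepatocytes alongside Hamp, 0 passed by edgeR, 0 by DESeq2 and 0 at an unadjusted p under 0.05. Id1 was at 6.92, 8.66 and 3.50 CPM in WT and 5.36, 6.30 and 3.10 CPM in Hom livers (log2 fold change −0.37, adjusted p = 0.469). Atoh8 had −0.45 (adjusted p = 0.161), and its Hom values lay within its WT range, but without WT replicate 3 it was −0.70 (adjusted p = 0.00614). Smad7 and Smad6, the inhibitory SMADs, had −0.25 (adjusted p = 0.584) and 0.05 (adjusted p = 0.823). The signs of Id1 and Smad7 turned with library size alone (0.09 and 0.24), and those of Smad6 and Smad7 each turned when single livers were left out.

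On the inflammatory arm, Il6ra, the IL-6 receptor subunit, fell from 56.5, 70.7 and 44.6 CPM in WT to 24.9, 23.9 and 23.7 CPM in Hom livers. Its log2 fold change was −1.25 (SE 0.16, adjusted p = 0.0017). Socs3, a feedback inhibitor of STAT3 signalling, was at 9.88, 12.6 and 8.41 CPM in WT and 31.1, 20.3 and 31.1 CPM in Hom livers. It rose, with a log2 fold change of 1.42 (SE 0.22, adjusted p = 0.00303). Stat3 itself did not pass (log2 fold change 0.13, adjusted p = 0.341), except with library size alone (0.58, adjusted p = 0.00368). Of 16 acute phase genes, Socs3 included, 2 were higher, 2 lower and 12 not called. Those shares were 12.5% each way, against 21.5% higher and 20.1% lower of all tested genes. The 16 had a median of 0.82 (0.41 without Hom replicate 1). Scaled by library size alone, 7 were higher and the 2 lower calls were lost.

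**Figure D2:**
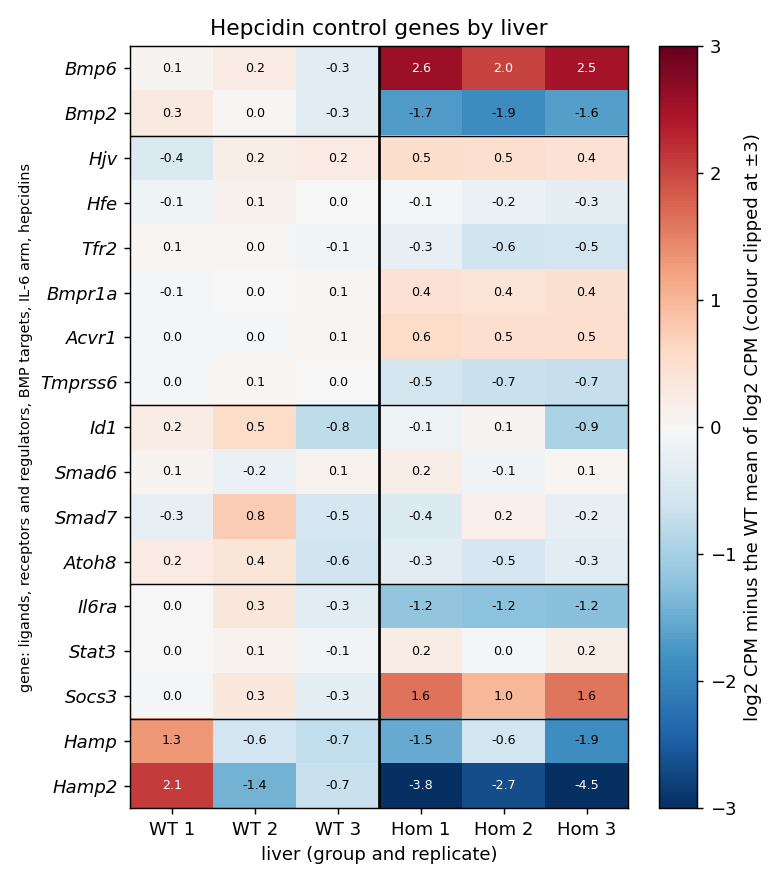
Log2 CPM of hepcidin control genes in each of the 6 livers, each gene as the difference from its WT mean. Lines are genes grouped by role, columns are livers, and the printed number and the colour (which stops at ±3) give the difference in log2 units. Bmp6 is raised and Bmp2 lowered in all 3 Hom livers, while Hamp and Hamp2 are highest in WT replicate 1.

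Tfr2, the hepatocyte transferrin receptor that senses iron-loaded transferrin, fell. Tfr2 (NCBI Gene 50765) was at 444.1, 439.3 and 403.7 CPM in WT livers. In Hom livers it was at 359.6, 282.8 and 294.9 CPM, all below the WT values. The Hom mean was 72.8% of the WT mean, with a log2 fold change of −0.46 (SE 0.13, 95% interval −0.75 to −0.16, adjusted p = 0.0256). The call depended on the scaling, with −0.01 (adjusted p = 0.944) for library size alone and an adjusted p of 0.0518 for upper-quartile factors. It was also lost without WT replicate 1 or 2 or Hom replicate 2 or 3 (adjusted p of 0.0519, 0.0754, 0.0856 and 0.0904).

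Tfrc, the receptor that takes up iron-loaded transferrin in most cells, gave higher values in Hom livers without passing. It was at 28.8, 26.0 and 42.1 CPM in WT livers and at 60.3, 32.5 and 53.2 CPM in Hom livers (NCBI Gene 22042). Hom replicate 2 lay within the WT range. The log2 fold change was 0.59 (SE 0.27, 95% interval −0.04 to 1.22, adjusted p = 0.113). Without Hom replicate 2 it was 0.81 (adjusted p = 0.0367), and with library size alone 1.03 (adjusted p = 0.0112).

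Trf, transferrin, was the most abundant of the 10 genes and was higher in each Hom liver than in any WT liver. It was at 21030, 17690 and 15350 CPM in WT and at 34980, 26000 and 24920 CPM in Hom livers (NCBI Gene 22041). The Hom mean was 1.59 times the WT mean, with a log2 fold change of 0.67 (SE 0.24, 95% interval 0.10 to 1.24) and an adjusted p of 0.0616. That missed the threshold, while DESeq2 (adjusted p = 0.000806), library size alone (1.10, adjusted p = 0.00575) and upper-quartile factors (0.76, adjusted p = 0.042) called it. Unscaled, Trf took 1.94%, 1.43% and 1.28% of all counts in WT livers and 3.80%, 3.21% and 2.98% in Hom livers.

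**Figure D3:**
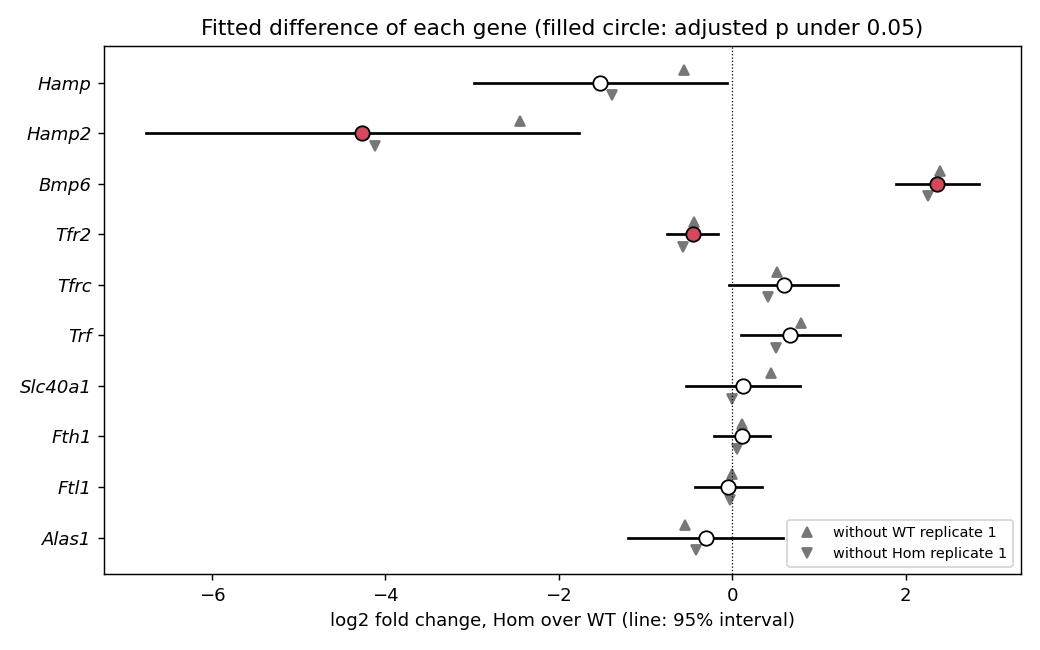
Log2 fold change of the 10 genes, Hom over WT, as circles with 95% intervals from the edgeR fit, filled where the adjusted p is under 0.05, and with triangles for the value without WT replicate 1 (upward) or without Hom replicate 1 (downward). Bmp6, Hamp2 and Tfr2 are filled, and the triangle without WT replicate 1 lies farthest from the circle for Hamp2 (−2.45 against −4.27) and Hamp (−0.55 against −1.53).

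The exporter and the ferritin subunits gave log2 fold changes near 0. Their mRNAs carry iron-responsive elements, hairpins bound by the iron regulatory proteins, which block translation from a 5′ UTR and stabilise Tfrc mRNA from its 3′ UTR. The elements are shown because the genes that carry them in opposite ends were both read here. They were found in GENCODE M21 transcripts (GRCm38, sense strand only) as a bulged C, 5 bases, a loop of CAGTG and a base other than G, in capitals, and 5 bases pairing with the first, G-U pairs allowed.
Fth1, 5′ UTR, chr19:9982732-9982760, plus strand: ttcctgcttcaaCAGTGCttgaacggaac
Ftl1, 5′ UTR, chr7:45459779-45459807, minus strand: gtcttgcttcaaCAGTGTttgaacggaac
Slc40a1, 5′ UTR, chr1:45925465-45925493, minus strand: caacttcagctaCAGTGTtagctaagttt
Tfrc, 3′ UTR, first of 4, chr16:32631219-32631247, plus strand: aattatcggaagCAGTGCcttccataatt
Tfrc, 3′ UTR, last of 4, chr16:32631710-32631738, plus strand: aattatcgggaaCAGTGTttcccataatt
The pattern occurred in the 5′ UTR of 22 of 20899 genes (0.105%) and in the 3′ UTR of 98 of 21028 genes (0.466%). Tfrc held 4 of them. Control through a 5′ UTR acts on protein synthesis, which RNA counts do not read.

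Slc40a1 (NCBI Gene 53945) was at 129.8, 82.7 and 65.5 CPM in WT and at 118.5, 110.5 and 74.0 CPM in Hom livers, with wide overlap. Its log2 fold change was 0.12 (SE 0.28, 95% interval −0.53 to 0.78, adjusted p = 0.745). Fth1 (NCBI Gene 14319), the ferritin heavy chain, was at 1515, 1432 and 1602 CPM in WT and at 1765, 1638 and 1515 CPM in Hom livers. Its log2 fold change was 0.11 (SE 0.14, 95% interval −0.21 to 0.43, adjusted p = 0.532), and with library size alone it passed (0.56, adjusted p = 0.0144). Ftl1 (NCBI Gene 14325), the light chain, was at 3541, 3176 and 3288 CPM in WT and at 3149, 3659 and 2883 CPM in Hom livers. Its log2 fold change was −0.05 (SE 0.16, 95% interval −0.43 to 0.34, adjusted p = 0.840). The sign of Ftl1 turned with library size alone (0.41), and that of Slc40a1 turned without WT replicate 3 (−0.08) or Hom replicate 1 (−0.0065). Ferritin genes have many processed pseudogenes, with which reads may be shared.

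Among other genes of iron transport, storage and sensing, 24 of 29 listed were tested, with a median of 0.22 on the log2 scale. Of these, 9 were higher (37.5%, against 21.5% of all tested genes) and 7 lower (29.2%, against 20.1%). Without Hom replicate 1, 5 were higher and 5 lower (median 0.01). With library size alone 12 were higher and 2 lower (6574 and 642 among all tested genes). Those that rose included Cp, ceruloplasmin, the plasma ferroxidase that works with ferroportin, at 1403, 1208 and 1030 CPM in WT and 3816, 2880 and 2884 CPM in Hom livers (log2 fold change 1.40, SE 0.20, adjusted p = 0.00223). Steap4 and Steap3, metalloreductases that reduce ferric iron, rose by 1.31 (adjusted p = 0.000659) and 0.44 (adjusted p = 0.0184) on the log2 scale, and without Hom replicate 3 the call of Steap3 was lost (0.0686). Slc11a2, the importer DMT1, rose by 0.42 (adjusted p = 0.0396). That call was lost with the replicate block (0.0936), with the length correction (0.0822, and 0.155 with the block added), and without WT replicate 1 or 2 or Hom replicate 1 or 2 (0.0701, 0.113, 0.0702 and 0.122). Of the other importers, Slc39a8 fell (log2 fold change −0.81, adjusted p = 0.00165), and Slc39a14, the liver importer of iron not bound to transferrin, did not pass (−0.25, adjusted p = 0.287).

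Genes for carriers and receptors of other iron-bearing molecules were read singly. Lcn2, lipocalin-2, which binds bacterial iron carriers, was at 191.6, 11.7 and 5.22 CPM in WT and at 4517, 2078 and 1273 CPM in Hom livers. It rose, with a log2 fold change of 5.24 (SE 1.45, adjusted p = 0.0263), although the call was lost without WT replicate 2 (adjusted p = 0.0724), Hom replicate 1 (0.0536) or Hom replicate 2 (0.0535). Over every library left out in turn the log2 fold change of Lcn2 ran from 4.59 to 8.27. Cd163, the macrophage receptor for haptoglobin-bound haemoglobin, was at 28.9, 14.5 and 13.0 CPM in WT and at 5.13, 0.742 and 1.81 CPM in Hom livers. It fell, with a log2 fold change of −2.89 (SE 0.65, adjusted p = 0.0129), and without Hom replicate 3 the adjusted p was 0.0536. The Kupffer cell markers Clec4f and Timd4 were also lower (log2 fold changes −1.59 and −2.38, adjusted p of 0.0271 and 0.0126). With a liver left out the adjusted p of Clec4f reached 0.0705. Of the 14 Kupffer and macrophage markers, 3 were higher (21.4%, against 21.5% of all tested genes) and 2 lower (14.3%, against 20.1%). With library size alone 8 were higher and 1 lower (6574 and 642 among all tested genes). Summed, these 14 ran from 367.2 to 886.4 CPM in WT and from 611.7 to 854.2 CPM in Hom livers, and their part in the Cd163 reading was not tested. Of the ferritin receptors, Timd2 fell by 0.63 on the log2 scale (adjusted p = 0.00414, and 0.108 with library size alone), while Scara5 rose by 1.71 (adjusted p = 0.0294). WT values of Scara5 were spread, at 3.68, 18.5 and 8.84 CPM, and with a liver left out its adjusted p reached 0.086. Hp, haptoglobin itself, rose by 1.23 on the log2 scale (adjusted p = 0.0483), which reached 0.149 with a liver left out. The heme carrier gene Hpx (1.15, adjusted p = 0.0663) and its receptor Lrp1 (−0.22, adjusted p = 0.287) did not pass.

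The iron regulatory proteins fell by smaller amounts. Aco1 (IRP1) and Ireb2 (IRP2), which bind the iron-responsive elements, had log2 fold changes of −0.42 (adjusted p = 0.0275) and −0.40 (adjusted p = 0.0455), and both signs turned with library size alone (0.05 and 0.07). Aco1 was at 198.3, 251.9 and 252.9 CPM in WT and 171.6, 175.0 and 179.3 CPM in Hom livers. Both calls were lost with upper-quartile factors (0.0589 and 0.0976) and when any liver but WT replicate 1 was left out, with adjusted p of up to 0.0856 for Aco1 and 0.133 for Ireb2. The call of Ireb2 was also lost with the minimum of 10 counts per liver (0.0661). Ncoa4, the receptor that delivers ferritin for degradation, did not pass (−0.25, adjusted p = 0.228), except without Hom replicate 1 (−0.42, adjusted p = 0.029).

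**Figure D4:**
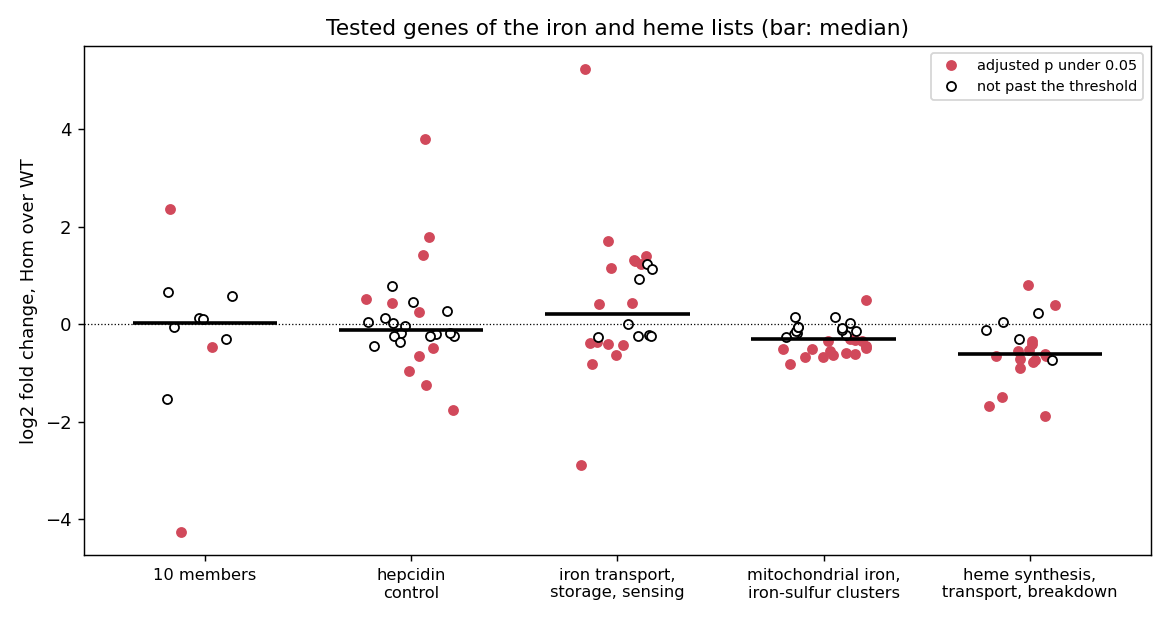
Log2 fold changes, Hom over WT, of the 10 genes and of the tested genes of each list, one point per gene, filled where the adjusted p is under 0.05, with a bar at the median and a dotted line at 0. Heme genes (median −0.62) and mitochondrial iron and iron-sulfur genes (median −0.30) lie mostly below 0, while hepcidin control genes (median −0.11) and transport genes (median 0.22) lie on both sides.

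Genes of mitochondrial iron use were mostly lower. The list held 29 genes for mitochondrial iron import and for building iron-sulfur clusters, the iron cofactors of respiratory and other enzymes. Of these, 15 were lower (51.7%, against 20.1% of all tested genes) and 1 higher (3.45%, against 21.5%), and the log2 median was −0.30. The mitochondrial part had 13 of 23 lower and 0 higher, and the 6 genes of cytosolic assembly had 2 lower and 1 higher. With library size alone the list had 1 lower and 7 higher (642 and 6574 among all tested genes). Of the 7, 4 were in the mitochondrial part and 3 in the cytosolic part. The list median turned to 0.15, below the all-gene median of 0.45 under that scaling. Abcb10, a mitochondrial inner membrane transporter linked to heme synthesis, fell by 0.81 on the log2 scale (adjusted p = 0.000865). Gfer and Cisd1, a sulfhydryl oxidase and an outer membrane iron-sulfur protein, fell by 0.68 on the log2 scale each (adjusted p of 0.00141 and 0.00313, and 0.132 and 0.206 with library size alone). Slc25a37, mitoferrin-1, which imports iron, did not pass (0.15, adjusted p = 0.279), except with library size alone (0.60, adjusted p = 0.013). The gene that rose was Ciapin1, of the cytosolic assembly machinery (0.49, adjusted p = 0.034), and its call was lost when any liver but Hom replicate 3 was left out (adjusted p of up to 0.104).

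Alas1 encodes the first and rate-limiting enzyme of heme synthesis in liver. Alas1 (NCBI Gene 11655) was at 339.9, 419.6 and 819.1 CPM in WT livers and at 491.0, 515.2 and 272.3 CPM in Hom livers. The groups overlapped, with a WT liver highest and a Hom liver lowest of the 6. The log2 fold change was −0.30 (SE 0.38, 95% interval −1.20 to 0.59, adjusted p = 0.547), and without WT replicate 3 it was 0.16.

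Most other steps of heme synthesis fell, with less spread. Of 9 enzyme genes from Alas1 and Alas2 to Fech, 7 were lower and 0 higher by edgeR, as by DESeq2, at an unadjusted p under 0.05 and without Hom replicate 1. With library size alone 2 were lower and 1 higher. Cpox, coproporphyrinogen oxidase, was at 165.2, 220.6 and 230.1 CPM in WT and at 51.7, 58.4 and 58.2 CPM in Hom livers. Its Hom mean was 27.3% of the WT mean (log2 fold change −1.87, SE 0.14, adjusted p = 0.000375). Fech, ferrochelatase, which inserts the iron, was at 180.7, 210.3 and 199.0 CPM in WT and at 114.6, 120.3 and 121.6 CPM in Hom livers (−0.73, SE 0.090, adjusted p = 0.00151). Urod fell by 0.62 on the log2 scale (adjusted p = 0.000939). With library size alone Fech and Urod missed the threshold (adjusted p of 0.0645 and 0.175). Besides Alas1, the step that did not pass was Uros (0.23, adjusted p = 0.166).

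Alas2, the erythroid counterpart of Alas1, was at 77.6, 161.2 and 164.1 CPM in WT and at 40.8, 41.7 and 44.0 CPM in Hom livers (log2 fold change −1.67, SE 0.27, adjusted p = 0.00394). It is also an erythroid marker. Of 8 erythroid markers tested, 2 were lower (Alas2 and Klf1) and 0 higher by edgeR, as by DESeq2 and at an unadjusted p under 0.05. That is 25.0% lower, against 20.1% of all tested genes. Without Hom replicate 1, or with library size alone, 1 was lower and 0 higher. With a liver left out the adjusted p of Klf1 (0.0432) reached 0.143. The 4 haemoglobin genes summed to 361.2 to 1333 CPM in WT and 661.5 to 2119 CPM in Hom livers. Of these 4, 0 passed by edgeR, by DESeq2 or at an unadjusted p under 0.05. Their part in the Alas2 reading was not tested.

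The whole list of heme synthesis, transport and breakdown, in which Alas1 was not counted, had a median of −0.62 on the log2 scale. Of its 21 genes, 14 were lower (66.7%, against 20.1% of all tested genes) and 2 higher (9.52%, against 21.5%). Without Hom replicate 1, 14 were lower and 1 higher. With library size alone 4 were lower and 3 higher (642 and 6574 among all tested genes). The list median was then −0.16, against 0.45 over all tested genes. Slc46a1, a heme and folate importer, fell by 0.77 on the log2 scale (adjusted p = 0.000603). The genes that rose were Slc48a1, which moves heme out of lysosomes (0.40, adjusted p = 0.00929), and Flvcr1, a heme exporter (0.82, adjusted p = 0.0343). The call of Flvcr1 was lost when any liver but WT replicate 1 was left out (adjusted p of up to 0.0966). Hmox1, the inducible heme oxygenase that frees iron from heme, was at 32.3, 22.1 and 23.3 CPM in WT and at 27.6, 23.5 and 20.3 CPM in Hom livers (−0.12, adjusted p = 0.601). In the same livers hepatocyte markers had a median log2 fold change of −0.69, with 19 of 30 lower and 1 higher (with library size alone −0.23, 9 lower and 2 higher), and Alb at 96280 to 123800 CPM in WT and 39580 to 55710 CPM in Hom livers. Cholangiocyte markers had a median of 3.02, with 11 of 12 higher, and stellate cell markers 0.42, with 6 of 13 higher and 2 lower. Scaled by library size alone, 11 and 8 of these were higher. The part of cell composition in the mitochondrial and heme readings was not tested.

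**Figure D5:**
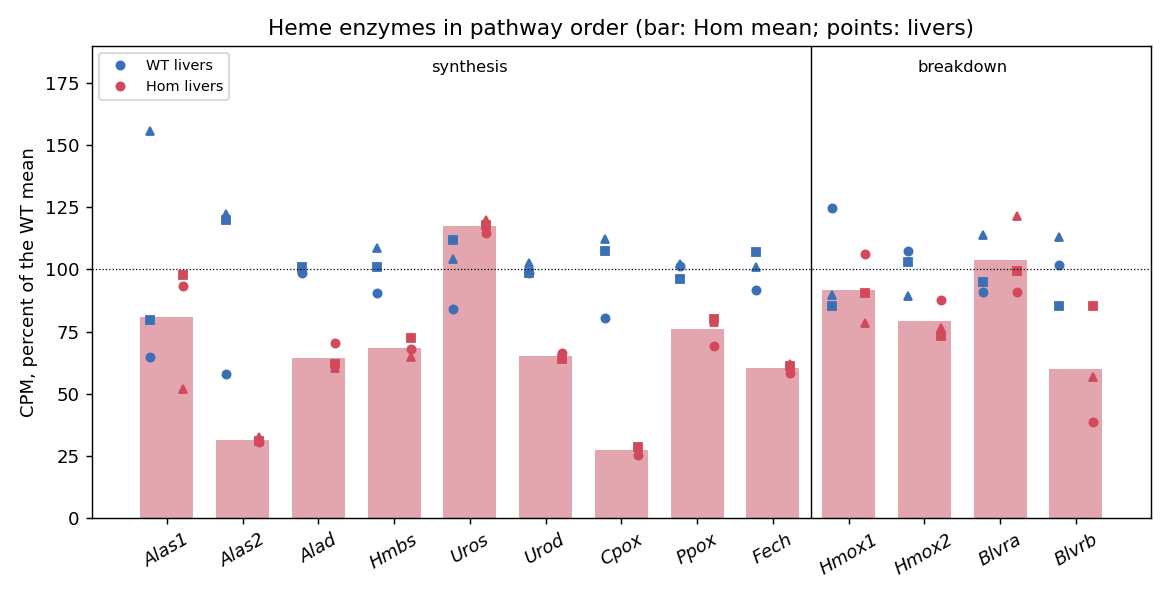
CPM of the heme enzymes in pathway order, synthesis on the left and breakdown on the right, as a percent of each gene's WT mean. Bars from 0 are Hom means, blue and red points are the WT and Hom livers, and the dotted line is 100%. Cpox (27.3%) has the lowest bar, and Alas1 has a WT liver far above its mean.

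Levels between the 10 genes were compared per transcript length, as TPM within a group. In WT livers the order was Trf (11520 ± 3119 TPM), Ftl1 (5248 ± 897.8), Fth1 (2451 ± 309.5), Hamp (2307 ± 2213), Alas1 (279.1 ± 119.3), Tfr2 (204.7 ± 30.96), Hamp2 (126.2 ± 165.8), Slc40a1 (41.4 ± 19.9), Tfrc (9.52 ± 2.27) and Bmp6 (2.62 ± 0.60; SD, n = 3 each). Trf, Ftl1 and Fth1 did not overlap one another, nor did Slc40a1, Tfrc and Bmp6, whereas Fth1 and Hamp overlapped, as did each neighbour from Alas1 through Slc40a1. In Hom livers the order was the same down to Tfr2, and then ran Slc40a1 (67.1 ± 14.5 TPM), Tfrc (21.9 ± 5.40), Bmp6 (20.6 ± 3.02) and Hamp2 (9.25 ± 6.47). There Tfrc and Bmp6 overlapped. Among all genes of the table, Trf ranked 10 by mean TPM in WT and 2 in Hom livers, Hamp 57 and 108, Bmp6 9506 and 4780, and Hamp2 899 and 7578. The WT means behind the ranks of Hamp and Hamp2 rest largely on WT replicate 1. Hamp was at 4861 TPM there, against 1089 and 970 in the other WT livers, and Hamp2 at 317.4 TPM, against 22.7 and 38.5. Fth1 stood at 0.441 to 0.502 of Ftl1 in WT livers and at 0.462 to 0.578 in Hom livers by TPM.

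The genes whose levels followed the same course over the 6 livers were found by the root mean square difference of log2 CPM, each gene centred on its mean, among 12864 genes. For Bmp6 they were Itga11 (0.12 log2 units), Kif1a (0.15) and Nid1 (0.15), beside a size of 1.19 for the pattern of Bmp6 itself. For Tfrc they were Spire1 (0.069), Pde4d (0.13) and Cd248 (0.14), beside 0.45. For Hamp they were Fabp7 (0.41), Phf11c (0.43) and Cd5l (0.43), beside 1.01, and Cd5l, which is expressed in Kupffer cells, was at 141.2, 58.5 and 47.5 CPM in WT and 21.0, 48.1 and 38.8 CPM in Hom livers. No gene followed Hamp2 closely, the nearest being Disp2 (0.97, beside 2.13). These genes were picked for their likeness, over livers that share depth and composition, and the values are a description.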

How the data were processed

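RNA from whole livers of 3 WT and 3 Hom mice, 1 liver per mouse, was extracted with Trizol and sequenced on the DNBSEQ platform. The authors deposited estimated counts, FPKM and TPM for 17975 genes. The submitters' processing notes name HISAT2 2.0.4, Bowtie2 2.2.5, RSEM 1.2.12 and the build mm9 without giving their roles, and the annotation and strandedness are not given in the sources used here. Reads of overlapping or antisense genes can therefore not be told apart. Deposited estimated counts, 65.9% of them whole, were rounded. The authors' FPKM values served only to recover gene lengths, and their TPM values only to compare levels between genes. The deposited group means carry crossed names for all 17975 genes and were not used.

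The 3 Hom livers were compared with the 3 WT livers by the quasi-likelihood test of edgeR 4.0.16 (R 4.3.3) on the 13805 genes that passed filterByExpr, scaled with TMM factors, with Benjamini-Hochberg adjustment, a threshold of 0.05 and no minimum fold change. SEs were derived from the fold change and the F statistic. The procedure was tested on simulated data. Alternatives were DESeq2 1.42.0, scaling by upper-quartile factors or library size alone, all genes or those with 10 or more counts in each liver, a replicate block, a loess length correction with and without that block, a minimum log2 fold change of 1 in size, and each liver left out in turn. Summing Hamp and Hamp2 was added after seeing the data. Counts of livers of a group differed by far more than counting error (22.3 or more for chi-square over its degrees of freedom), so each was kept as a replicate.

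The members and gene lists were chosen with earlier results of these data known. The text names the members, 24 list genes fixed by name (1 of which is not reported here), and in each list the 3 genes past the threshold with the smallest adjusted p in each direction. The likest genes had a mean of at least 1 CPM, with a prior count of 2. Beyond these, Uros, Klf1, Eng, Scara5, Hp, Hpx, Lrp1, the cell type markers and the genes that could not be tested were named after their values were seen. Promoter sequences are from RefSeq (GRCm38.p6) and hairpins from GENCODE M21 (GRCm38), and no coordinate of the deposited data was used.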

Additional observations from a re-analysis of the deposited data

How the results depend on the processing

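Over 49 named genes and 686 comparisons with an alternative, 599 kept their direction and side of the threshold, 51 kept the direction but no longer passed, 14 newly passed and 22 turned sign. WT and Hom livers share replicate numbers but are different mice, and deviations of same-numbered livers correlated at −0.11, −0.056 and −0.049. With the replicate block 2383 genes were higher and 2214 lower in all, and Bmp6 (2.36), Hamp2 (−3.62) and Tfr2 (−0.46) stayed called. Library size alone turned Ftl1 (0.41), Alas1 (0.16), Hfe (0.28), Smad7 (0.24), Id1 (0.089), Slc39a14 (0.21), Ncoa4 (0.20), Aco1 (0.046), Ireb2 (0.073) and Hmox1 (0.31), since it shifts all genes upward. Ftl1 also turned with upper-quartile factors (0.045), with the minimum of 10 counts per liver (0.0013), the length correction (0.14) and that correction with the replicate block (0.13). With a liver left out the log2 fold change ran from −0.54 to 0.16 for Alas1, −0.14 to 0.031 for Ftl1, −0.24 to 0.063 for Hmox1, −0.079 to 0.44 for Slc40a1, −0.044 to 0.12 for Smad6, −0.48 to 0.22 for Smad7, and −0.96 to 0.012 for the median of the Y-linked genes.

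Of the 10 members, the 1 higher became 2 with DESeq2, 4 with library size alone and 2 with upper-quartile factors. The 2 lower became 1 with library size alone, with upper-quartile factors, with the length correction and replicate block together, and with a log2 fold change of at least 1. With a liver left out they ran from 1 to 2 higher and from 0 to 2 lower. Hepcidin control, 6 higher and 5 lower, had 14 and 2 with library size alone, 3 and 2 at a log2 fold change of at least 1, and 3 to 5 and 3 to 7 with a liver left out. Hepcidin control had 9 higher with upper-quartile factors and 4 with no filter. Iron transport, 9 and 7, had 12 and 2 with library size alone, 4 lower with upper-quartile factors, 1 lower at a log2 fold change of at least 1, and 3 to 10 and 2 to 6 with a liver left out. Mitochondrial iron, 1 and 15, had 7 and 1 with library size alone, 0 and 0 at a log2 fold change of at least 1, 10 lower with the length correction and replicate block together, and 0 to 1 and 10 to 15 with a liver left out. Heme, 2 and 14, had 3 and 4 with library size alone, 0 and 3 at a log2 fold change of at least 1, and 1 to 2 and 12 to 14 with a liver left out. Apart from the scalings and the fold minimum, which act by their construction, the causes were not tested. Depth limits mainly Hamp2 in Hom livers, which had 18 to 67 counts.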
